A study of Lentinus tigrinus with 27 samples.

Results

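Of 15581 gene models of the wood-decay mushroom Lentinus tigrinus, 6 met a rule with several conditions. It asked for a set floor in every young fruiting group and a level lower by a set margin in every mature tissue. The 6 genes were thus chosen from their measured levels. M is the mean, over the 3 libraries of a group, of log2(TPM + 1), where TPM is transcript abundance scaled for gene length and library size. A gene was taken where its lowest M among 5 young groups (P1, P2_C, P2_S, YFB_C, YFB_S) was at least 2.5 and at least 0.8 above its highest M among 3 mature groups (FB_C, FB_S, FB_L). In addition, M in P2_C and in P2_S had to be less than 1 apart, and M in VM less than 1 above the highest young group. The difference between mature and young groups is therefore a description of how the genes were picked, and no test of it is given.

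Libraries of polyA RNA came from strain RLP-9953-sp, 3 per group and 27 in all. VM is vegetative mycelium, the hyphal growth that precedes fruiting, kept on malt extract agar; whether the sampled mycelium grew on agar or on the fruiting medium is not said. Every fruiting group grew from a mycelial plug on wheat bran and aspen sawdust, 21 days at 30 °C in darkness and then at 25 °C under 12 h of light and 12 h of darkness daily. P1 is the stage 1 primordium, a white stalk 5 to 20 mm tall before a cap is visible. P2_C and P2_S are the cap initial and the stipe of the stage 2 primordium, 15 to 25 mm tall. YFB_C and YFB_S are cap and stipe of the young fruiting body, 30 to 40 mm tall with a cap up to 5 mm wide. FB_C, FB_S and FB_L are cap, stipe and lamellae (gills) of the fruiting body, 50 to 70 mm tall with a flat cap. The series' design text calls the 3 libraries biological replicates, without saying which beakers they came from, so p-values measure the spread between these libraries.

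In mushrooms of this kind, hyphae aggregate into a primordium in which the tissues of cap and stipe are laid down early, and the young fruiting body then grows largely by expansion of cells already formed. In the mature body the gills carry the basidia, where nuclei fuse, meiosis takes place and spores form, while the stipe has mostly stopped growing. Growth and patterning of cap and stipe thus belong to the young stages, and spore production to the mature body.

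The files do not pair gene identifiers with names or functions, and 0 of them matched a reference table of another assembly, so the genes are given by identifier, with _ in place of bars, and no role can be stated. Tissue labels could not be checked against marker genes for the same reason. Libraries held 10.8 to 31.8 M reads assigned to genes, and they lay on 6 flowcells, numbered here in the order of the samples. In bulk tissue, fewer cells that express a gene and less RNA per cell cannot be told apart. All 6 genes passed the filter on low counts, and in every library each had at least 13 reads.

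The pattern was rare. Of 9286 genes with every young group at or above the floor of 2.5, 2189 had M in FB_C at least 0.8 below YFB_C and 1195 had M in FB_S at least 0.8 below YFB_S, and 136 had both. The lowest young M was above the highest mature M, by any amount, in 581 genes. All 3 mature groups lay at least 0.8 below all 5 young groups in 16 genes. The condition on P2 removed 9 of these, all with higher M in P2_C than in P2_S, and the condition on VM removed 1, leaving 6. With the direction turned round (every mature M at least 2.5 and at least 0.8 above every young M), 6 genes were found. That count, added after the values were seen, used no condition on P2 or VM, so its counterpart is the 16.

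**Figure D1:**
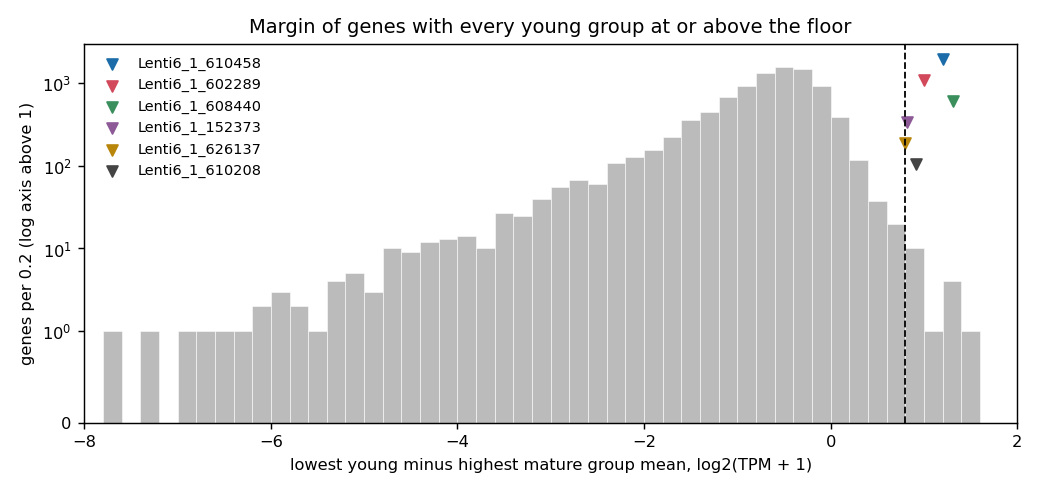
Margin, the lowest young M minus the highest mature M in log2(TPM + 1), for the 9286 genes at or above the floor (x axis), against the number of genes per bin of 0.2 (y axis, log above 1). The dashed line marks the margin of 0.8, and triangles, placed at arbitrary heights, mark the 6 genes, which lie between 0.80 and 1.32 against a median of -0.61 over all plotted genes.

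None of the 6 was switched off in mature tissue. Lenti6_1_610458 was the most abundant, with a mean young M of 11.12, above that of 99.9% of gene models. Lenti6_1_602289, Lenti6_1_608440 and Lenti6_1_152373 were moderately high (mean young M 6.52, 6.51 and 6.39), and Lenti6_1_626137 and Lenti6_1_610208 were low (4.22 and 4.10). Margins between the lowest young and the highest mature group were 1.20, 1.00, 1.32, 0.82, 0.80 and 0.91 in the same order. In single libraries the separation was incomplete. In 0 of the 6 genes did all 9 mature libraries lie below all 15 young ones, which held for 0.14% of the 13569 genes tested, and 7 or 8 mature libraries lay below every young library in each gene. Gene models were 519 to 1837 bases long, with a median of 1073 bases, against 1216 bases over all models. All reads of 5 genes mapped uniquely, as did 99.9% of those of Lenti6_1_626137.

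**Figure D2:**
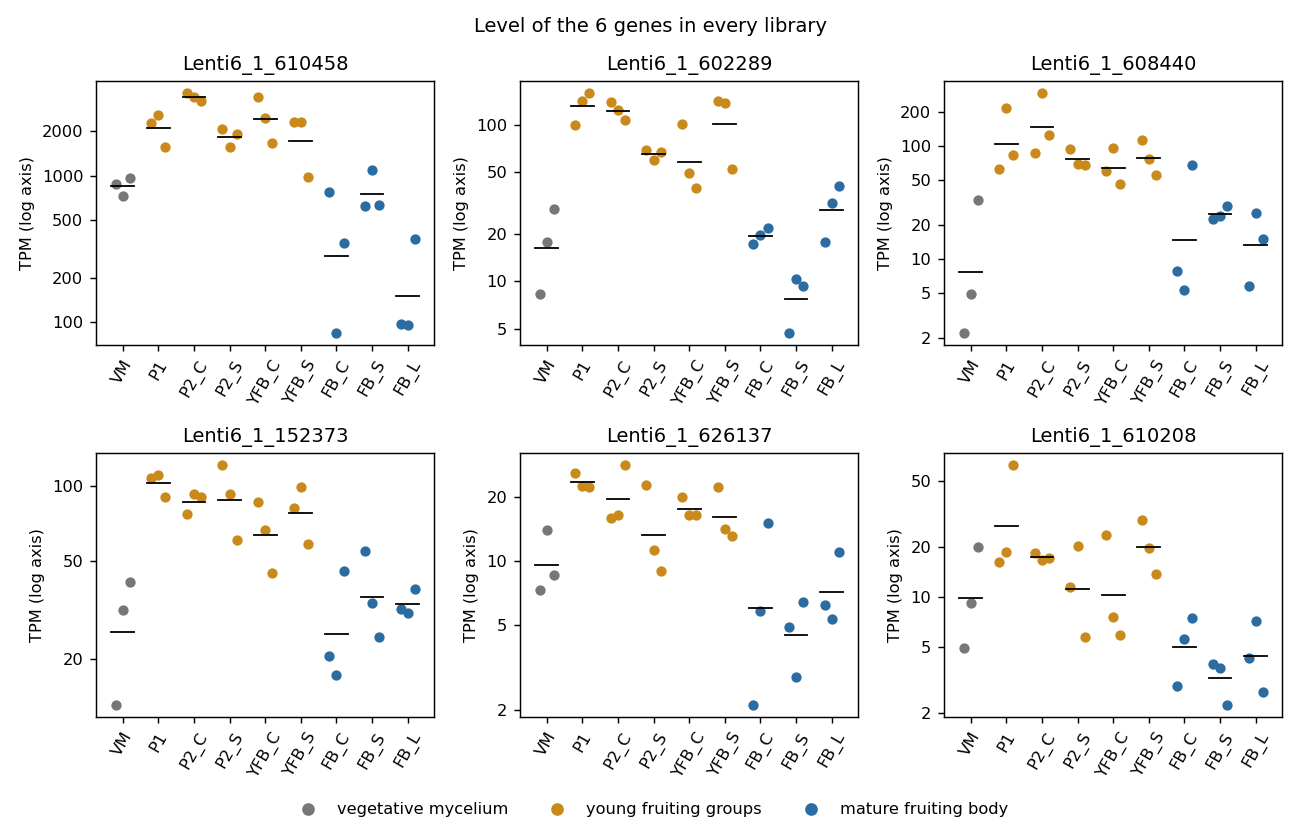
Level of each gene in TPM (y axis, log scale) in all 27 libraries, by group in developmental order (x axis). Each point is 1 library, black bars are the group means of log2(TPM + 1) turned back to TPM, and colours mark mycelium, the 5 young groups and the 3 mature groups. Mature points lie mostly but not wholly below the young ones in each panel.

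Lenti6_1_610458 (903 bases) had its highest mean in the cap initial. VM libraries had 877, 725 and 967 TPM, and P1 libraries 2277, 2590.0 and 1558 TPM. Stage 2 gave 3649, 3446 and 3228 TPM in P2_C and 2079, 1554 and 1915 TPM in P2_S. The P2_C mean was above every other group mean, and its libraries lay above all P1 and P2_S libraries but overlapped those of YFB_C. Young fruiting bodies had 3430.2, 2471 and 1662 TPM in YFB_C and 2309.9, 2311 and 973 TPM in YFB_S. Mature tissues had 774, 84.7 and 346 TPM in FB_C, 621, 1086 and 628 TPM in FB_S and 97.1, 96.1 and 371 TPM in FB_L. The difference was deepest in gills and cap. FB_C held 15.9% of the YFB_C mean, FB_L 7.46% of the YFB_C mean and FB_S 41.7% of the YFB_S mean, and FB_S overlapped YFB_S through 1 library of each. Ordered by M, the groups ran P2_C, YFB_C, P1, P2_S, YFB_S, VM, FB_S, FB_C, FB_L, and YFB_S with VM was the one pair of neighbours whose libraries did not overlap.

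Lenti6_1_602289 (1210 bases) had the deepest stipe difference. Mycelium gave 8.30, 17.7 and 29.1 TPM, and stage 1 primordia gave 99.5, 142 and 159.8 TPM. In stage 2 primordia the levels were 141, 124 and 107 TPM in P2_C and 69.2, 59.6 and 67.2 TPM in P2_S. P1 and P2_C had the highest means, and P2_S lay below every P2_C library (0.91 ± 0.13 for P2_C minus P2_S in M, SE, n = 3 each, just under the limit of 1). In young fruiting bodies they were 101, 48.9 and 39.6 TPM in YFB_C and 142, 139 and 52.3 TPM in YFB_S. In the mature body they were 17.3, 19.7 and 21.8 TPM in FB_C, 4.70, 10.4 and 9.33 TPM in FB_S and 17.9, 31.8 and 40.7 TPM in FB_L. FB_S held 7.35% of the YFB_S mean, FB_C 31.1% and FB_L 47.8% of the YFB_C mean. The gills were its highest mature tissue, and FB_L replicate 3 exceeded YFB_C replicate 3, so those groups overlapped. Its groups, by M, ran P1, P2_C, YFB_S, P2_S, YFB_C, FB_L, FB_C, VM, FB_S, and every pair of neighbours overlapped.

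Lenti6_1_608440 is the shortest of the gene models (519 bases) and had the widest margin. Levels in VM were 2.23, 4.93 and 33.5 TPM, and those in P1 were 62.5, 216 and 84.0 TPM. Those of the stage 2 primordium were 86.3, 294 and 126 TPM in P2_C and 94.0, 69.2 and 68.4 TPM in P2_S. P1 replicate 2 and P2_C replicate 2 stood well above the other libraries of their groups. The young fruiting body reached 59.7, 95.4 and 45.9 TPM in YFB_C and 113, 76.8 and 55.3 TPM in YFB_S. The mature fruiting body kept 7.89, 5.35 and 68.6 TPM in FB_C, 22.6, 24.0 and 29.2 TPM in FB_S and 5.83, 25.7 and 14.9 TPM in FB_L. The FB_C mean rests on replicate 3, which exceeded 2 of the YFB_C libraries, while the other FB_C libraries were among the lowest of all. FB_S held 30.9% of the YFB_S mean with tight libraries, FB_L 23.1% and FB_C 40.7% of the YFB_C mean. By M the order was P2_C, P1, YFB_S, P2_S, YFB_C, FB_S, FB_C, FB_L, VM, in which YFB_C and FB_S were the one pair of neighbours that did not overlap. In all 4 groups with a library on flowcell 2 (VM, P1, P2_C, FB_C), the highest value of this gene was on that flowcell, but so was the lowest P2_C value, that of replicate 1.

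Lenti6_1_152373 (1042 bases) had the smallest spread of group means in both phases. The 3 VM libraries held 13.1, 31.5 and 41.0 TPM, and the 3 P1 libraries held 108, 111 and 90.9 TPM. Stage 2 libraries held 77.4, 92.9 and 90.2 TPM in P2_C and 122, 92.8 and 60.6 TPM in P2_S. All 5 young means lay within 0.69 log2 units of each other. Libraries of the young fruiting body held 86.1, 66.8 and 44.5 TPM in YFB_C and 81.4, 99.8 and 58.2 TPM in YFB_S. Libraries of the mature body held 20.7, 17.2 and 45.3 TPM in FB_C, 54.7, 33.6 and 24.5 TPM in FB_S and 32.0, 30.6 and 38.6 TPM in FB_L. The 3 mature means lay within 0.47 log2 units of each other. FB_C held 42.1% and FB_L 51.3% of the YFB_C mean, and FB_S held 47.1% of the YFB_S mean. FB_C replicate 3 exceeded YFB_C replicate 3, while FB_S and YFB_S did not overlap. Values of M ran P1, P2_S, P2_C, YFB_S, YFB_C, FB_S, FB_L, VM, FB_C, and each pair of neighbours overlapped.

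Lenti6_1_626137 has the longest model (1837 bases) and the smallest margin, 0.80. Before fruiting, VM had 7.31, 13.9 and 8.53 TPM, and P1 then had 25.7, 22.3 and 22.3 TPM. At stage 2 there were 15.8, 16.4 and 28.1 TPM in P2_C and 22.7, 11.3 and 8.95 TPM in P2_S. P1 was the tightest and highest group, and P2_S spread over more than 2-fold. At the young stage there were 19.9, 16.3 and 16.3 TPM in YFB_C and 22.1, 14.1 and 13.0 TPM in YFB_S. At maturity there were 2.11, 5.79 and 15.1 TPM in FB_C, 4.88, 2.86 and 6.38 TPM in FB_S and 6.17, 5.36 and 11.0 TPM in FB_L. FB_S held 28.7% of the YFB_S mean, and FB_C 43.8% and FB_L 42.8% of the YFB_C mean. None of these 3 pairs overlapped, but FB_C replicate 3 and FB_L replicate 3 lay within the P2_S libraries. Its M ran P1, P2_C, YFB_C, YFB_S, P2_S, VM, FB_L, FB_C, FB_S, with overlap between all neighbours.

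Lenti6_1_610208 (1104 bases) was the lowest of the genes and the most variable between young libraries. Mycelial libraries stood at 4.91, 9.27 and 20.1 TPM, and P1 libraries stood at 16.3, 18.8 and 62.8 TPM. Stage 2 libraries stood at 18.4, 16.7 and 17.3 TPM in P2_C and 11.5, 20.3 and 5.74 TPM in P2_S. P1 replicate 3 stood far above the other P1 libraries, while P2_C was very even. Young fruiting bodies stood at 23.9, 7.57 and 5.91 TPM in YFB_C and 29.3, 19.8 and 13.9 TPM in YFB_S. Mature tissues stood at 2.93, 5.61 and 7.51 TPM in FB_C, 3.96, 3.76 and 2.24 TPM in FB_S and 4.31, 7.18 and 2.67 TPM in FB_L. FB_S held 15.8% of the YFB_S mean with no overlap, while FB_C (42.9% of the YFB_C mean) and FB_L (37.9%) overlapped YFB_C, whose replicates 2 and 3 were low. In mature libraries the gene had 24 to 133 reads. M ran P1, YFB_S, P2_C, P2_S, YFB_C, VM, FB_C, FB_L, FB_S, again with overlap between all neighbours.

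Set side by side, the genes differed in the mature tissue with the lowest mean, but mostly with overlapping libraries. Only in Lenti6_1_602289 were libraries of the lowest mature group clear of those of the next lowest. In the other genes the ranking is by means alone. M was lowest in FB_S for 3 genes (Lenti6_1_602289, Lenti6_1_626137 and Lenti6_1_610208), in FB_L for 2 (Lenti6_1_610458 and Lenti6_1_608440) and in FB_C for 1 (Lenti6_1_152373). The deepest differences were FB_L minus YFB_C in Lenti6_1_610458 (-3.99 ± 0.71, SE, n = 3 each) and FB_S minus YFB_S in Lenti6_1_602289 (-3.54 ± 0.56), and the shallowest was FB_L minus YFB_C in Lenti6_1_152373 (-0.90 ± 0.29). All 3 libraries of the mature tissue lay below all 3 of the young tissue in 3 of 6 genes for FB_C against YFB_C, 4 of 6 for FB_L against YFB_C and 5 of 6 for FB_S against YFB_S. Of all genes tested, 30.5%, 16.2% and 28.8% did so in these comparisons, and since the genes were picked on these levels nothing is read from the counts. The 5 genes other than Lenti6_1_610458 summed to 87.6 ± 61.2 TPM in FB_C, 91.6 ± 22.3 TPM in FB_L and 79.0 ± 10.3 TPM in FB_S (SD, n = 3 each). Among young groups that sum was lowest in YFB_C (226 ± 69.3 TPM) and highest in P2_C (417 ± 111 TPM).

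**Figure D3:**
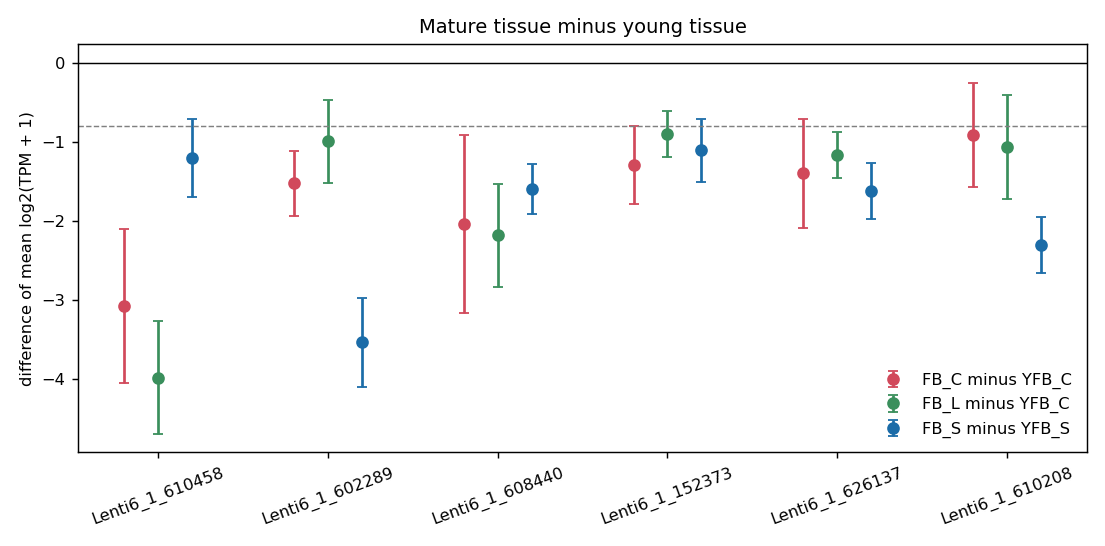
Difference of the group means of log2(TPM + 1) between mature and young tissue (y axis) for the 6 genes (x axis), with bars of 1 SE from 3 libraries per group. The dashed line is at -0.8. FB_S minus YFB_S is the deepest of the 3 differences in Lenti6_1_602289, Lenti6_1_626137 and Lenti6_1_610208, and FB_L minus YFB_C in Lenti6_1_610458 and Lenti6_1_608440.

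Whether the decline differed between cap and stipe was tested as an interaction, FB_C minus YFB_C less FB_S minus YFB_S. The choice of genes asked for a lower level in both tissues and did not use the difference between them. Lenti6_1_602289 fell less in the cap than in the stipe, by 2.19 ± 0.60 on the log2 scale (SE, edgeR quasi-likelihood test, adjusted p = 0.00986, 0.00333 to 0.0588 over the alternatives). It was the 1 gene of 6 with a call, defined as an adjusted p under 0.05 and at least 2-fold, against 27.3% of all genes tested (16.2% in this direction). Over the 6 genes the median interaction was 0.60, and over all genes 0.19. The call of Lenti6_1_602289 was lost with flowcell as a covariate, where FB_S replicate 4, alone on its flowcell, carries no weight (2.03, edgeR adjusted p = 0.0588). Lenti6_1_610208 stood at 1.56 ± 0.86 (SE) and was called without YFB_C replicate 1 (2.39, adjusted p = 0.0396 by edgeR and 0.0396 to 0.511 over the alternatives). Lenti6_1_610458 had the opposite sign, -1.25 ± 0.78 (SE), and was called without FB_C replicate 1 (-2.19, adjusted p = 0.0277 by edgeR and 0.0277 to 0.423 over the alternatives). FB_C and YFB_C libraries shared no flowcell, and the interaction has no within-flowcell value.

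In both comparisons tested among mature tissues, edgeR called none of the genes. Between FB_C and FB_S, edgeR called 0 of 6 genes (1 at an unadjusted p under 0.05) and DESeq2 0, against 12.5% of all genes tested by edgeR. Lenti6_1_602289 averaged 19.6 ± 2.26 TPM in FB_C and 8.15 ± 3.04 TPM in FB_S (SD, n = 3 each) with no overlap. The edgeR fit on scaled counts gave 1.08 ± 0.43 in log2 (fold change ± SE, adjusted p = 0.0859 by edgeR). For Lenti6_1_610458 the means were 402 ± 348 TPM in FB_C and 778 ± 266 TPM in FB_S (-1.11 ± 0.55, SE, adjusted p = 0.171 by edgeR and 0.0196 to 0.479 over the alternatives). Without FB_C replicate 1, the highest of its group, that gene was called lower in FB_C (-2.05, edgeR adjusted p = 0.0196). Between FB_L and FB_C, edgeR called 0 of 6 (1 at an unadjusted p under 0.05) and DESeq2 0, where 2.41% of all genes were called. There Lenti6_1_610458 averaged 188 ± 158 TPM in FB_L and 402 ± 348 TPM in FB_C (-1.40 ± 0.56, SE, adjusted p = 0.174 by edgeR and 0.0287 to 0.687 over the alternatives), and it was called without FB_C replicate 2 (-1.88, edgeR adjusted p = 0.0287). FB_L against FB_S was not tested. Its libraries did not overlap in Lenti6_1_610458 (-2.30 ± 0.70 in M, SE, n = 3 each) or in Lenti6_1_602289 (1.76 ± 0.46). Of FB_L and FB_C, flowcells 1 and 3 held a library of each, which for Lenti6_1_610458 had 97.1 TPM in FB_L and 84.7 TPM in FB_C on flowcell 1 and 96.1 TPM in FB_L and 774 TPM in FB_C on flowcell 3, so the direction differed. The spread of the 6 genes between mature libraries was wide, with a median SD of log2(TPM + 1) of 0.951 in FB_C, 0.583 in FB_L and 0.468 in FB_S. Over all genes at the floor the medians were 0.382, 0.401 and 0.261. Counts simulated for FB_C against FB_S, with changes in genes drawn at random, let edgeR recover 76% of 4-fold and 22% of 2-fold changes. The 2-fold changes sat at the fold cutoff of a call. Since the 6 genes spread more widely by the medians above, these shares cannot be carried over to them.

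Of the pairs of young groups, P2_C with P1 and YFB_C with YFB_S were tested, and edgeR called none of the genes. Between P2_C and P1, edgeR called 0 of 6 genes (0 at an unadjusted p under 0.05) and DESeq2 0, against 14.0% of all genes by edgeR. Lenti6_1_610458 had 3441 ± 210.1 TPM in P2_C and 2142 ± 529 TPM in P1 (SD, n = 3 each) and no overlap, yet the fitted log2 difference of 0.57 ± 0.55 missed the threshold (SE, adjusted p = 0.485 by edgeR). On flowcell 2 it had 3649 and 3446 TPM in P2_C and 2590.0 TPM in P1. Lenti6_1_610208 averaged 17.5 ± 0.852 TPM in P2_C and 32.6 ± 26.2 TPM in P1 (-1.01 ± 0.59, SE, edgeR adjusted p = 0.23). Between YFB_C and YFB_S, edgeR called 0 of 6 (1 at an unadjusted p under 0.05) and DESeq2 1, against 18.4% of all genes by edgeR and 11.6% called lower by DESeq2. The DESeq2 call was Lenti6_1_602289, with 63.0 ± 32.8 TPM in YFB_C and 111 ± 50.7 TPM in YFB_S (SD, n = 3 each). The edgeR fit on scaled counts gave -1.11 ± 0.42 in log2 (fold change ± SE, adjusted p = 0.0519 by edgeR, 0.0172 to 0.208 over the alternatives). The gene was called lower in YFB_C by DESeq2 (-1.07, adjusted p = 0.0442). Within flowcell 4 its YFB_C library had 101 TPM and the YFB_S libraries 142 and 139 TPM, and within flowcell 5 the YFB_C libraries had 48.9 and 39.6 TPM and the YFB_S library 52.3 TPM, lower in YFB_C on both. Leaving out YFB_C replicate 1 or YFB_S replicate 3 also brought an edgeR call (-1.58 and -1.43, adjusted p = 0.0172 and 0.0242). Without YFB_C replicate 1, Lenti6_1_610208 was called as well (-1.89, adjusted p = 0.0372 by edgeR and 0.0372 to 0.471 over the alternatives), against -1.06 ± 0.59 (SE) with all libraries. In YFB_C against YFB_S the other 4 genes had log2 fold changes between -0.59 and 0.14. The other young pairs are given as levels only, and for Lenti6_1_602289 the libraries of P2_S and P1 did not overlap, nor did those of YFB_C and P2_C (-1.07 ± 0.42 in M for YFB_C minus P2_C, SE, n = 3 each). Counts simulated for YFB_C against YFB_S in the same way let edgeR recover 82% of 4-fold and 11% of 2-fold changes, the latter again at the fold cutoff. Median SDs of log2(TPM + 1) were 0.525 in YFB_C and 0.510 in YFB_S for the 6 genes. Over all genes at the floor they were 0.219 and 0.239, so the recovered shares cannot be carried over to the 6.

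Mycelium lay below the young level in all 6 genes. The choice of genes allowed M in VM up to 1 above the highest young group, and M in VM was below the lowest young group in 6 of 6 genes, against 23.1% of the genes at the floor. The gap was -2.90 for Lenti6_1_608440, -1.76 for Lenti6_1_602289, -1.27 for Lenti6_1_152373, -1.02 for Lenti6_1_610458, -0.43 for Lenti6_1_626137 and -0.07 for Lenti6_1_610208. All 3 VM libraries lay below all 15 young libraries in 4 genes (Lenti6_1_610458, Lenti6_1_602289, Lenti6_1_608440 and Lenti6_1_152373), against 3.57% of genes tested. Relative to the mature tissues, M in VM was above the highest mature group in Lenti6_1_610458, Lenti6_1_626137 and Lenti6_1_610208, below the lowest in Lenti6_1_608440, and between them in Lenti6_1_602289 and Lenti6_1_152373. The floor under the young groups and the ceiling on VM both favour values lower in VM, so the counts describe the genes and support nothing further.

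**Figure D4:**
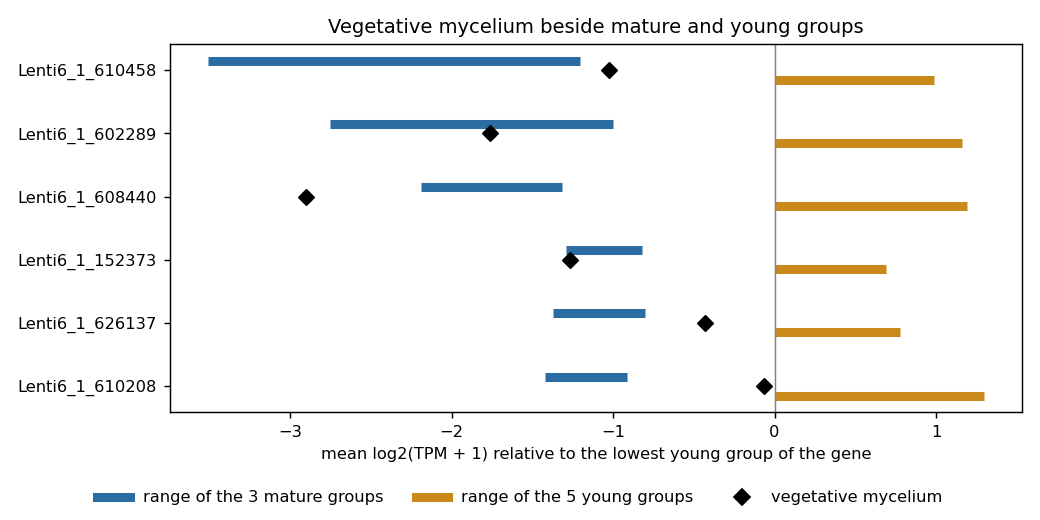
Group means of log2(TPM + 1) relative to the lowest young group of each gene (x axis, 0 at that group) for the 6 genes (y axis). Blue bars span the 3 mature groups, ochre bars the 5 young groups, and diamonds mark vegetative mycelium, which lies left of 0 in all 6 genes and left of both bars in Lenti6_1_608440.

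Between P1 and VM, edgeR called 4 of 6 genes higher in P1, the direction that the choice of genes favours, against 6.91% of all genes called higher and 15.0% in either direction. All 3 P1 libraries lay above all 3 VM libraries in 5 of 6, against 10.3% of genes tested. The median log2 fold change was 1.87 over the 6 genes and 0.03 over all genes. Lenti6_1_602289 averaged 134 ± 30.9 TPM in P1 and 18.4 ± 10.4 TPM in VM (SD, n = 3 each). The edgeR fit on scaled counts gave 3.03 ± 0.45 in log2 (fold change ± SE, adjusted p = 7.73e-05 by edgeR). Lenti6_1_152373 averaged 103 ± 10.9 TPM in P1 and 28.5 ± 14.2 TPM in VM (2.05 ± 0.40, SE, edgeR adjusted p = 0.00113). Both calls were kept in all 14 alternatives. Lenti6_1_608440 averaged 121 ± 83.0 TPM in P1 and 13.6 ± 17.4 TPM in VM (3.22 ± 0.89, SE, adjusted p = 0.0135 by edgeR and 0.000678 to 0.0695 over the alternatives). VM replicate 3 held most of its VM signal, and the estimate was 5.29 without it. The call was lost without VM replicate 1 (2.71), VM replicate 2 (2.82) or P1 replicate 2 (2.58) and in a fit of the 6 libraries alone (3.22). Lenti6_1_626137 averaged 23.4 ± 1.96 TPM in P1 and 9.91 ± 3.49 TPM in VM (1.48 ± 0.48, SE, adjusted p = 0.032 by edgeR and 0.0116 to 0.21 over the alternatives). Its call was lost without VM replicate 1 or 3 (1.26 and 1.42), without any 1 of P1 replicates 1, 2 and 3 (1.33, 1.56 and 1.52) and with flowcell as a covariate (1.34).

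The remaining 2 genes missed the threshold in P1 against VM. Lenti6_1_610458 averaged 2142 ± 529 TPM in P1 and 857 ± 122 TPM in VM (SD, n = 3 each) without overlap (1.54 ± 0.56, SE, adjusted p = 0.0551 by edgeR and 0.0111 to 0.671 over the alternatives). It was called by edgeR in a fit of the 6 libraries alone (adjusted p = 0.0168) and without FB_C replicate 2 and FB_L replicate 1 (adjusted p = 0.0111), and its estimate fell to 0.49 with flowcell as a covariate. Lenti6_1_610208 averaged 32.6 ± 26.2 TPM in P1 and 11.4 ± 7.81 TPM in VM with overlap (1.68 ± 0.60, SE, adjusted p = 0.0518 by edgeR and 0.0116 to 0.417 over the alternatives), and was called without VM replicate 3, P1 replicate 1 or P1 replicate 2 (2.47, 1.98 and 1.97). Its estimate was 1.07 with flowcell as a covariate and 0.78 without P1 replicate 3. DESeq2 called all 6 higher in P1, against 7.82% of all genes. VM replicates 1 and 2 lay on flowcell 1, which held no P1 library. On flowcell 2, the one shared by the groups, each had 1 library, P1 replicate 2 and VM replicate 3, and no test can be made there. They had 142 TPM in P1 and 29.1 TPM in VM for Lenti6_1_602289, 111 TPM in P1 and 41.0 TPM in VM for Lenti6_1_152373, 216 TPM in P1 and 33.5 TPM in VM for Lenti6_1_608440, and 22.3 TPM in P1 and 8.53 TPM in VM for Lenti6_1_626137, each higher in P1. Lenti6_1_610458 was higher in P1 there as well, with 2590.0 TPM in P1 and 967 TPM in VM, while Lenti6_1_610208 ran the other way, with 18.8 TPM in P1 and 20.1 TPM in VM. Medium, temperature and light of the sampled VM cultures are not recorded in the labels, and their part was not tested.

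With all libraries, neither edgeR nor DESeq2 called a difference between mature stipe or cap and mycelium. The 6 genes spread widely in VM, with a median SD of log2(TPM + 1) of 0.840, against 0.362 over genes at the floor. A missing call therefore does not show equal levels. Between FB_S and VM, edgeR called 0 of 6 (2 at an unadjusted p under 0.05) and DESeq2 0, against 32.1% of all genes by edgeR. Lenti6_1_152373 had 37.6 ± 15.5 TPM in FB_S and 28.5 ± 14.2 TPM in VM (SD, n = 3 each), which gave 0.91 ± 0.39 in log2 (SE, adjusted p = 0.0641 by edgeR). Lenti6_1_610208 had 3.32 ± 0.938 TPM in FB_S and 11.4 ± 7.81 TPM in VM (-1.29 ± 0.61, SE, edgeR adjusted p = 0.0936). Single libraries decided several calls. Without VM replicate 3, Lenti6_1_608440 and Lenti6_1_152373 were called higher in FB_S (3.40 and 1.34, edgeR adjusted p = 0.00583 and 0.0152). Without VM replicate 1, Lenti6_1_602289 and Lenti6_1_610208 were called lower in FB_S (-1.06 and -1.68, edgeR adjusted p = 0.0485 and 0.0439), and without FB_S replicate 4, Lenti6_1_152373 was called higher (1.15, edgeR adjusted p = 0.0374). Over all alternatives the adjusted p of Lenti6_1_602289, Lenti6_1_608440, Lenti6_1_152373 and Lenti6_1_610208 ranged from 0.0485 to 0.867, 0.00583 to 0.486, 0.0152 to 0.334 and 0.0439 to 0.542. Between FB_C and VM, edgeR called 0 of 6 (0 at an unadjusted p under 0.05) and DESeq2 0, against 15.7% of all genes by edgeR, with log2 fold changes between -0.80 (Lenti6_1_610208) and 1.26 (Lenti6_1_608440). Without VM replicate 3, Lenti6_1_608440 was called higher in FB_C (3.33, adjusted p = 0.0138 by edgeR and 0.0138 to 0.61 over the alternatives). No FB_S library shared a flowcell with a VM library, while FB_C replicate 2 shared flowcell 1 with VM replicates 1 and 2, and FB_C replicate 3 flowcell 2 with VM replicate 3. For Lenti6_1_608440 the FB_C value was above VM on both, 5.35 TPM in FB_C against 2.23 and 4.93 TPM in VM on flowcell 1, and 68.6 TPM in FB_C against 33.5 TPM in VM on flowcell 2.

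Flowcells were spread unevenly over the groups, and 4 of 6 held both mature and young libraries. Within them, mean log2(TPM + 1) was lower in mature than in young libraries in 24 of 24 values (6 genes on 4 flowcells), a direction that the choice of genes favours, and 21 values were -0.8 or less. The exceptions were Lenti6_1_626137 on flowcell 2 (-0.24, 1 mature and 3 young libraries) and on flowcell 4 (-0.62, 1 mature and 5 young), and Lenti6_1_152373 on flowcell 5 (-0.53, 2 mature and 5 young). The deepest value was that of Lenti6_1_610458 on flowcell 2 (-3.20). For all genes at the floor, the median of this difference was -0.289, 0.003, 0.187 and -0.246 on flowcells 2, 3, 4 and 5. How many of those genes had a value below 0, or of -0.8 or less, was not counted. Which tissues were compared differed between flowcells: the mature library of flowcell 2 was FB_C, those of flowcell 3 were FB_C and FB_L, that of flowcell 4 was FB_L, and those of flowcell 5 were FB_S. Young libraries of flowcell 5 varied in rank. YFB_S replicate 3 was the lowest YFB_S library in 6 of 6 genes and YFB_C replicate 3 the lowest YFB_C library in 5 of 6, against 52.7% and 32.2% of genes at the floor. Among the other young libraries of flowcell 5, P2_S replicate 3 was lowest of its group in 4 genes, against 59.1% of genes at the floor. P2_C replicate 3 was lowest in 2 (35.3%) and YFB_C replicate 2 in 1 (35.7%). FB_C replicate 3 and VM replicate 3, both on flowcell 2, were each the highest library of their group in 5 of 6 genes, against 31.4% and 31.0%. The other libraries of flowcell 2 were mixed, P1 replicate 2 being highest in 3 genes, against 48.3% of genes at the floor. P2_C replicate 1 was highest in 3 (29.9%) and lowest in 3 (30.8%). P2_C replicate 2 was highest in 2 (41.0%) and lowest in 1 (33.9%). Whether the flowcell has a part in these levels was not tested.

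**Figure D5:**
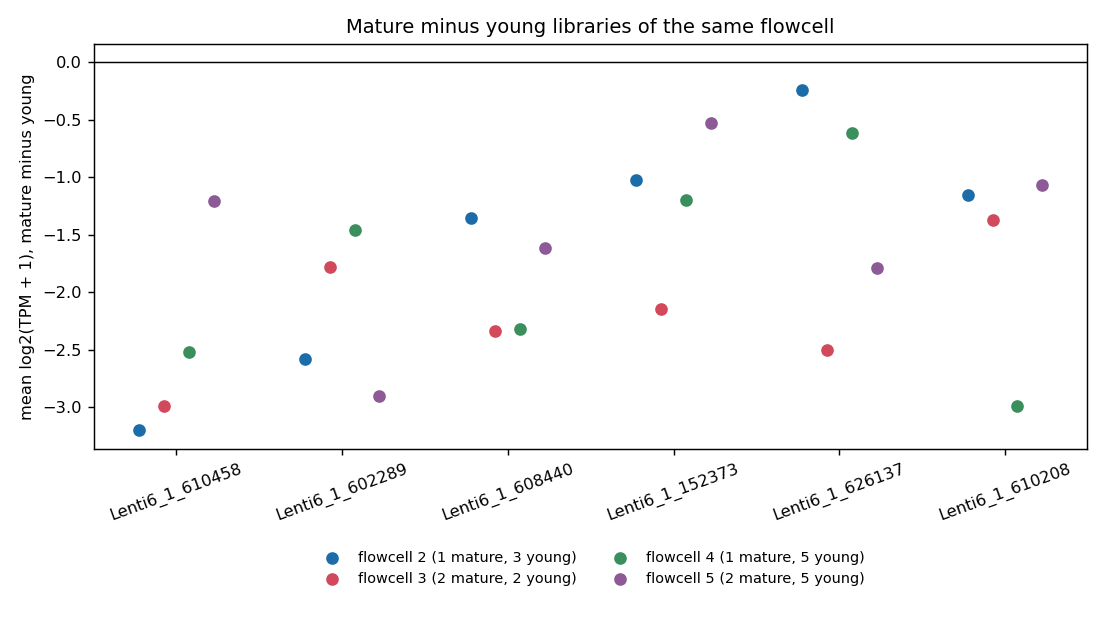
Mean log2(TPM + 1) of mature minus young libraries of the same flowcell (y axis) for the 6 genes (x axis), with 1 point for each of the 4 flowcells that held both and the number of libraries in the legend. All 24 points lie below 0, between -3.20 and -0.24, a direction that the choice of genes favours.

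Over the 9 group means, which come from the same libraries, Pearson's r between pairs of genes was 0.667 to 0.960 (15 pairs). The choice of genes put every young group above every mature one, which favours a high r here, so nothing is read from it. Within the 5 young groups, 10 of the 15 pairs had r over 0.5, and 4 of the other 5 pairs included Lenti6_1_610458. There it ran from -0.0630 (Lenti6_1_610458 with Lenti6_1_152373) to 0.929 (Lenti6_1_602289 with Lenti6_1_610208). Each of these values rests on 5 means, and the share over other pairs of genes was not computed. Just inside the margin of 0.8 stood Lenti6_1_626137 (0.80) and Lenti6_1_152373 (0.82). Just outside, with every other condition met, stood Lenti6_1_580230 (0.79) and Lenti6_1_565351 (0.77). Lenti6_1_580230 had 4.35 to 12.6 TPM in the 9 mature libraries and 15.1 to 29.8 TPM in the 15 young ones, with no overlap. Lenti6_1_565351 had 7.76 to 72.9 TPM in mature and 56.5 to 193 TPM in young libraries, its mature values being highest in FB_S. The genes outside the set whose 9 group means were most like the mean profile of the 6, a choice made after values were seen, were Lenti6_1_580130 and Lenti6_1_507240 (r = 0.968 and 0.951), among 11806 genes with an M of at least 2.5 in some group. Their margins were small, 0.32 and 0.37.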

How the data were processed

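PolyA RNA libraries were made with an Illumina kit without stated strand, so reads from overlapping antisense genes may be mixed. Per the labels, RNA integrity numbers exceeded 8. Per the submitters' processing notes, the tools included limma 3.18.13, edgeR 3.4.2 and R 3.0.2; the read aligner is not given in the sources used here. The authors deposited, per library, the count of total and of unique reads per gene, gene length and TPM, per the file headers; TPM recomputed from counts differed by at most 3.5e-10. A deposited matrix gives log2 RPKM of 13805 genes.

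Total counts were filtered (filterByExpr, minimum count 10; 13569 genes), scaled by TMM and fitted with edgeR 4.0.16 (quasi-likelihood, R 4.3.3), with 9 group means and 18 residual degrees of freedom. p-values are two-sided and adjusted by Benjamini-Hochberg over all genes tested. Log2 fold changes of tests come from this fit on TMM-scaled counts and can differ from ratios of mean TPM. Each SE is the fold change divided by the root of F. DESeq2 1.42.0 was an alternative. A shared spread can make errors too small for groups that vary widely. Simulated counts (13497 and 13494 genes, 100 changed per fold) tested the functions. Genes and tests were chosen with earlier results of these data known. All 6 genes are named; the genes just outside are the nearest 2. Replicate numbers recur across groups. Deviations from group means of same-numbered libraries correlated above 0.1 in all 3 pairs for YFB_C with YFB_S alone (0.251 to 0.394, 12707 genes). Replicate 1 of both groups lay on flowcell 4 and replicate 3 of both on flowcell 5, so pairing and flowcell cannot be told apart there. FB_S shared only replicate numbers 2 and 3 with other groups. Its correlations for these were 0.229 and 0.121 with YFB_S, 0.138 and 0.125 with VM, and -0.121 and -0.136 with FB_C. Replicate 2 lay on flowcell 5 in FB_S and on flowcell 4 in YFB_S. The main fit did not pair the samples. With the replicate number as a block, 0 of the 6 genes were called in YFB_C against YFB_S. No pair of libraries within a group agreed within sampling noise (chi-square per degree of freedom 42.9 to 339).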

Additional observations from a re-analysis of the deposited data

Results flagged for a closer look

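Lenti6_1_602289 differed between tissues in its change from young to mature fruiting body. Its interaction was 2.19 ± 0.60 on the log2 scale (SE, edgeR adjusted p = 0.00986), the stipe difference being the deeper. FB_S stood at 8.15 ± 3.04 TPM and YFB_S at 111 ± 50.7 TPM, FB_C at 19.6 ± 2.26 TPM and YFB_C at 63.0 ± 32.8 TPM (SD, n = 3 each). The estimate lay between 1.92 and 2.65 over 20 alternatives, with a call in 19 of them. The call was lost with flowcell as a covariate (2.03, edgeR adjusted p = 0.0588), and FB_C and YFB_C libraries shared no flowcell. Such calls were common, made in 27.3% of all genes tested and in 16.2% in this direction.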

How the results depend on the processing

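The set of genes depended on the cutoffs and on single libraries. A margin of 1 left 2 genes (Lenti6_1_610458 and Lenti6_1_608440) and a margin of 0.6 gave 20. Leaving out 1 of the 27 libraries at a time gave 3 to 10 genes, with 3 without YFB_C replicate 1 and 10 without YFB_C replicate 3, and 12 of these settings dropped at least 1 of the 6. Lenti6_1_610458 was kept in all 27, Lenti6_1_602289 and Lenti6_1_608440 in 24 each, and Lenti6_1_152373, Lenti6_1_626137 and Lenti6_1_610208 in 23 each. On the deposited log2 RPKM matrix and with TPM scaled by TMM factors, 4 genes were found each, without Lenti6_1_152373 (margins 0.35 and 0.55) and Lenti6_1_610208 (0.75 and 0.75). A pseudocount of 0.1 gave 9 genes, the 6 among them, and without FB_C replicate 2 and FB_L replicate 1 there were 5, sharing 4. Counts of calls among the 6 genes, leaving out 1 library at a time, ran from 2 to 4 for P1 against VM, 0 to 0 for P2_C against P1, 0 to 2 for YFB_C against YFB_S and for FB_S against VM, 0 to 1 for FB_C against FB_S, for FB_L against FB_C and for FB_C against VM, and 1 to 2 for the interaction. YFB_C against YFB_S had 1 call with DESeq2 and 1 without FB_C replicate 2 and FB_L replicate 1, and the interaction had 0 with flowcell as a covariate. With the replicate number as a block the counts were 4 for P1 against VM, 1 for the interaction and 0 for the other 6 comparisons, and no call of the 6 genes changed. FB_S replicate 4, with a number and a flowcell of its own, carries no weight in the fits with a block or flowcell. The cause of these changes was not tested. Few simulated 2-fold changes were called, but they sat at the fold cutoff of a call, so their recovery does not measure the number of libraries alone.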
